A study of Arabidopsis thaliana with 47 samples.

Results

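Both protoplast preparations of bZIP1 cells kept with cycloheximide were compared, 12 arrays titled Biorep 1 against 12 arrays titled Biorep 2. They were chosen by their titles and make up 24 of the 47 arrays of the series. The cells were protoplasts from Col-0 roots of Arabidopsis thaliana seedlings aged 10 days, released by cell wall digestion for 4 h. They were transfected for 25 min with pBeaconRFP_GR::bZIP1, a plasmid that overexpresses the transcription factor bZIP1 fused to a glucocorticoid receptor domain, and selected by its red fluorescent marker after incubation overnight. All 24 arrays share this vector and cycloheximide (CHX), which blocks protein synthesis. Each Biorep holds 4 groups of 3 arrays: nitrogen with DEX, nitrogen without DEX, no nitrogen with DEX and no nitrogen without DEX. For nitrogen (N), cells received 20 mM KNO3 and 20 mM NH4NO3 during 2 h, and cells without it received 20 mM KCl. DEX was 10 µM dexamethasone in ethanol, and cells without it received ethanol alone.

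Titles name the Bioreps and number the treatment replicates within them. What the arrays of 1 Biorep share, among seedlings, digestion, transfection, sorting, RNA amplification or hybridisation, is not given in the sources used here, and these cannot be told apart. With 1 preparation on each side, the test compares these preparations over arrays and says nothing of preparations in general. Treatment replicates may not be separate cultures, so each p-value measures the spread between arrays.

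A protoplast is a plant cell stripped of its wall, and wall digestion and isolation are themselves known to set off wound, defence and wall repair transcription. A root suspension mixes epidermis, cortex, endodermis and vascular cells, so that a difference in bulk RNA can come from the mixture or from the cells. Fewer cells of a type and less RNA per cell cannot be told apart here. In the transfected cells, DEX moves the receptor fusion from the cytoplasm into the nucleus.

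Transcripts were measured on Affymetrix ATH1 arrays as log2 GCRMA levels, where 1 unit is a 2-fold difference. The floor of the scale was 2.298, and 30.7% to 32.9% of values lay there on Biorep 1 arrays, against 30.8% to 33.4% on Biorep 2 arrays. Array medians were 2.92 to 2.94 in Biorep 1 and 2.95 to 2.98 in Biorep 2. Arrays of the same group correlated at 0.991 to 0.993 in Biorep 1 and 0.993 to 0.996 in Biorep 2 (Pearson's r across probe sets). The transfected gene bZIP1 has no named probe set here, and its level is not analysed. The labelled root origin could be checked against few markers, since 12 marker probe sets could be named. The 3 root hair markers, among them the expansins EXPA7 and EXPA18, averaged 2.30 to 2.55 in Biorep 1 and 2.30 in every Biorep 2 array, and the 3 cortex and the 1 phloem marker were likewise near the floor. The leaf gene RCA, encoding Rubisco activase, was also low, at 2.59 to 3.15 in Biorep 1 and 2.59 to 2.75 in Biorep 2.

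To ask which genes separate the preparations, Biorep 1 was set against Biorep 2 with the 4 treatment groups as covariate. Of 22746 probe sets, 5739 differed at an adjusted p under 0.05, which is 25.2% (limma with Benjamini-Hochberg adjustment). They split into 2554 that were higher in Biorep 1 (11.2%) and 3185 that were lower (14%). With arrays centred on their median, which shifted the median of all differences by 0.03, the balance turned to 3165 higher and 2892 lower. Most differences were small, with a median size of 0.48 log2 units among called probe sets. A difference of at least 2-fold was called for 683 probe sets (3%), 375 of them higher in Biorep 1 (1.65%) and 308 lower (1.35%). At least 4-fold differences numbered 51 higher and 41 lower. For 772 probe sets (3.39%) the arrays of the Bioreps did not overlap, 396 of them higher in Biorep 1 (1.74%) and 376 lower (1.65%). When the treatment replicates were first averaged to 4 pairs of means, 3131 probe sets passed.

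**Figure D1:**
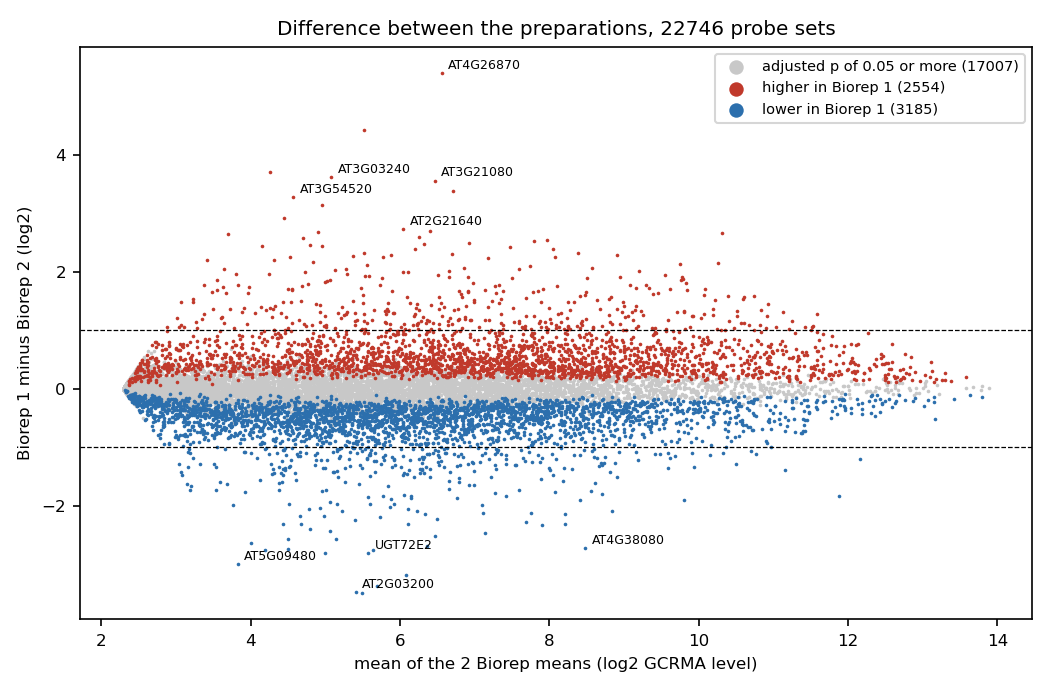
Each point is 1 of 22746 probe sets, with the mean of both Biorep means on the x axis (log2 GCRMA level) and Biorep 1 minus Biorep 2 on the y axis (log2). Red points were higher in Biorep 1 (2554), blue points lower (3185), grey points were not called, and dashed lines mark a 2-fold difference. AT4G26870 stands highest at 5.40.

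Of the 5739 called probe sets, 5505 (95.9%) had the same sign in all 4 groups of N and DEX, as had 682 of the 683 with at least 2-fold. They were called on the mean over the same 4 groups, which favours 1 sign, so these shares are a description. Tested within single groups of 3 against 3 arrays, 1830 were called with N and DEX, 1896 with N alone, 1912 with DEX alone and 2218 with neither, and 851 were called in all 4 groups. Calls depended on level: 3.03% of probe sets with a mean between 2 and 3 were called, against 61.6% of those between 8 and 10. Above a mean of 4, 4815 of 9428 were called (51.1%). On chromosomes 1 to 5 the share called lay between 19.6% and 23.3% of the probe sets matched to 1 gene, and the share with at least 2-fold between 2.14% and 2.59%.

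Biorep was the largest of the 3 design factors for 65.0% of the 9428 probe sets with a mean over 4, DEX for 19.3% and N for 15.7%. On average Biorep held 28.8% of a probe set's sum of squares, DEX 9.48% and N 6.497%, while 44.7% lay between arrays of the same group and Biorep. Biorep 1 arrays scored 20.6 to 37.3 on the first principal component and Biorep 2 arrays -31.6 to -18.8, with no overlap. The median size of the Biorep difference was 0.27, against DEX effects of 0.15 in Biorep 1 and 0.12 in Biorep 2.

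**Figure D2:**
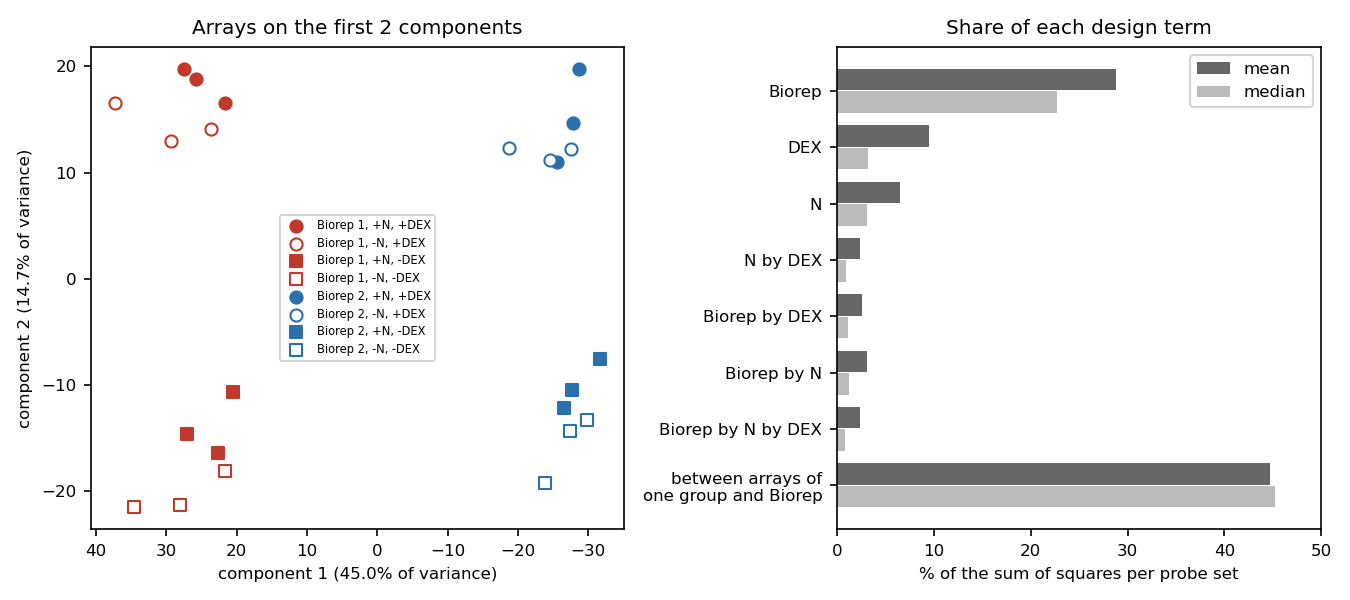
Left, the 24 arrays on the first 2 principal components of the 9428 probe sets with a mean over 4 (arbitrary units, x axis running downward), with Biorep 1 in red and Biorep 2 in blue, circles for DEX and squares for no DEX, filled for N and open for KCl. Component 1 separates the Bioreps and component 2 the DEX groups. Right, bars give the mean and median percent of the sum of squares per probe set held by each design term, with a mean of 28.8% for Biorep.

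Among probe sets matched to 1 gene, the largest difference was in AT4G26870, annotated as a class II aminoacyl tRNA synthetase of the aspartate type, an enzyme class that charges tRNAs for translation. Its level ran from 8.91 through a median of 9.25 to 9.76 on Biorep 1 arrays, against 3.35, 3.67 and 5.03 on Biorep 2 arrays. All 12 Biorep 1 arrays were above all 12 Biorep 2 arrays. The difference was 5.40 ± 0.17 (SE, n = 12 each), or 42.3-fold, with an adjusted p of 4.4e-14 by limma, and it was 4.77 to 6.08 within the 4 treatment groups. The next in size were AT3G03240, an alpha/beta hydrolase family member (12.3-fold), AT3G21080 (11.8-fold) and AT3G54520 (9.74-fold), all without overlap between the Bioreps.

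Genes known to respond to mitochondrial perturbation and oxidative stress lay among those higher in Biorep 1. AT2G21640, a marker of oxidative stress known as UPOX, ran from 6.23 through 7.40 to 8.20 in Biorep 1, against 4.11, 4.57 and 5.32 in Biorep 2. Every Biorep 1 array exceeded every Biorep 2 array, and the difference was 2.74 ± 0.18 (adjusted p = 5.6e-10, limma). AT2G04050, a MATE family transporter of the kind that exports small molecules, had 8.68, 9.07 and 9.54 in Biorep 1 and 6.08, 6.54 and 7.02 in Biorep 2, again with no overlap. Of 13 members of a list of mitochondrial perturbation genes, 10 were higher in Biorep 1, 1 was lower and 2 were not called, with a median of 0.79 against 0 over all probe sets. The share called was 84.6%, beside 25.2% of all probe sets. Among the 9 with a mean over 4, 8 were higher and 1 lower, where 51.1% of all such probe sets were called. The highest members of the list also included AT1G05060 (2.39), AT5G51440, a small heat shock protein of mitochondria (1.99), and AT2G32020, an acetyltransferase family member (1.59). The list was written after values had been seen, so its count describes these arrays and is no independent evidence. The lower member was AT5G64870 (-0.42), a flotillin-like membrane protein.

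Detoxification families held members called in each direction, at shares near that of all probe sets. GSTU25, a tau class glutathione transferase that conjugates electrophiles to glutathione, ran from 7.79 through 8.79 to 9.62 in Biorep 1, against 5.98, 6.80 and 7.30 in Biorep 2, a difference of 2.09 ± 0.17 with no overlap. GSTU27 (-0.83) and GSTU22 (-0.22) were lower in Biorep 1, although GSTU22 lost the call without replicate 1 or 3, with treatment replicates averaged and with no treatment covariate. The other 8 of 11 family members were not called, a share called of 27.3% beside 25.2% of all probe sets. Of 47 UDP-glycosyltransferases, enzymes that attach sugars to small molecules, 6 were higher and 7 lower in Biorep 1, a share called of 27.7% beside 25.2% of all probe sets. UGT73D1 (1.49), UGT73B5 (1.36) and UGT73B4 (0.73) were among the higher ones, each without overlap. UGT72E2, which glucosylates monolignols, the building blocks of lignin, was lower: 3.03, 4.08 and 5.30 in Biorep 1, against 6.40, 6.91 and 7.56 in Biorep 2. All its Biorep 1 arrays lay below all Biorep 2 arrays, and the difference was -2.82 ± 0.20 (adjusted p = 1.5e-09, limma).

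AT1G26380, a berberine bridge enzyme-like oxidase known from responses to pathogens, was 2.68 ± 0.21 higher in Biorep 1. It ran from 4.36 through 6.52 to 7.62 in Biorep 1, against 2.91, 3.60 and 4.06 in Biorep 2. The lowest Biorep 1 array was close to the highest Biorep 2 array, without overlap. Of 22 members of this oxidase family, 3 were higher and 1 lower, and the other 18 were not called, a share called of 18.2% beside 25.2% of all probe sets. Other large differences upward were in AT3G47380, of the pectin methylesterase inhibitor family (2.60), AT5G42830, of the HXXXD acyltransferase family (2.54), DGL, a chloroplast lipase (2.46), AT3G09405, an esterase of pectin (2.29), and AT4G37380, a pentatricopeptide repeat protein (2.25). The remaining genes among the 20 with the largest positive differences were AT4G33666, AT1G10875, AT5G19875 and AT2G19320, which ranged from 2.25 to 2.66, and those described below.

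Late embryogenesis abundant proteins, which protect cells under drying, held 11 higher and 2 lower members of 34. This is 38.2% called, beside 25.2% of all probe sets. Among the 13 with a mean over 4, 9 were higher and 2 lower, where 51.1% of all such probe sets were called. AT2G42560 was 2.26 higher in Biorep 1 and AT3G15670 1.87 higher, both without overlap, and AT3G17520 was 1.68 higher. Among 11 small heat shock proteins, chaperones that bind unfolding proteins, 5 were higher and 2 lower (63.6% called), and 8 had a mean over 4. AT1G52560 (2.03) was called in the fit of all arrays but reached an adjusted p of 0.050 with the treatment replicates averaged. AT5G37670 (1.95) had no overlap, and AT5G54660 was lower at -0.70. Unfolded protein response genes split, with the transcription factor BZIP60 0.82 higher and the chaperones CRT1b (-0.97) and ATERDJ3B (-0.93) lower, of 5 that could be named.

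**Figure D3:**
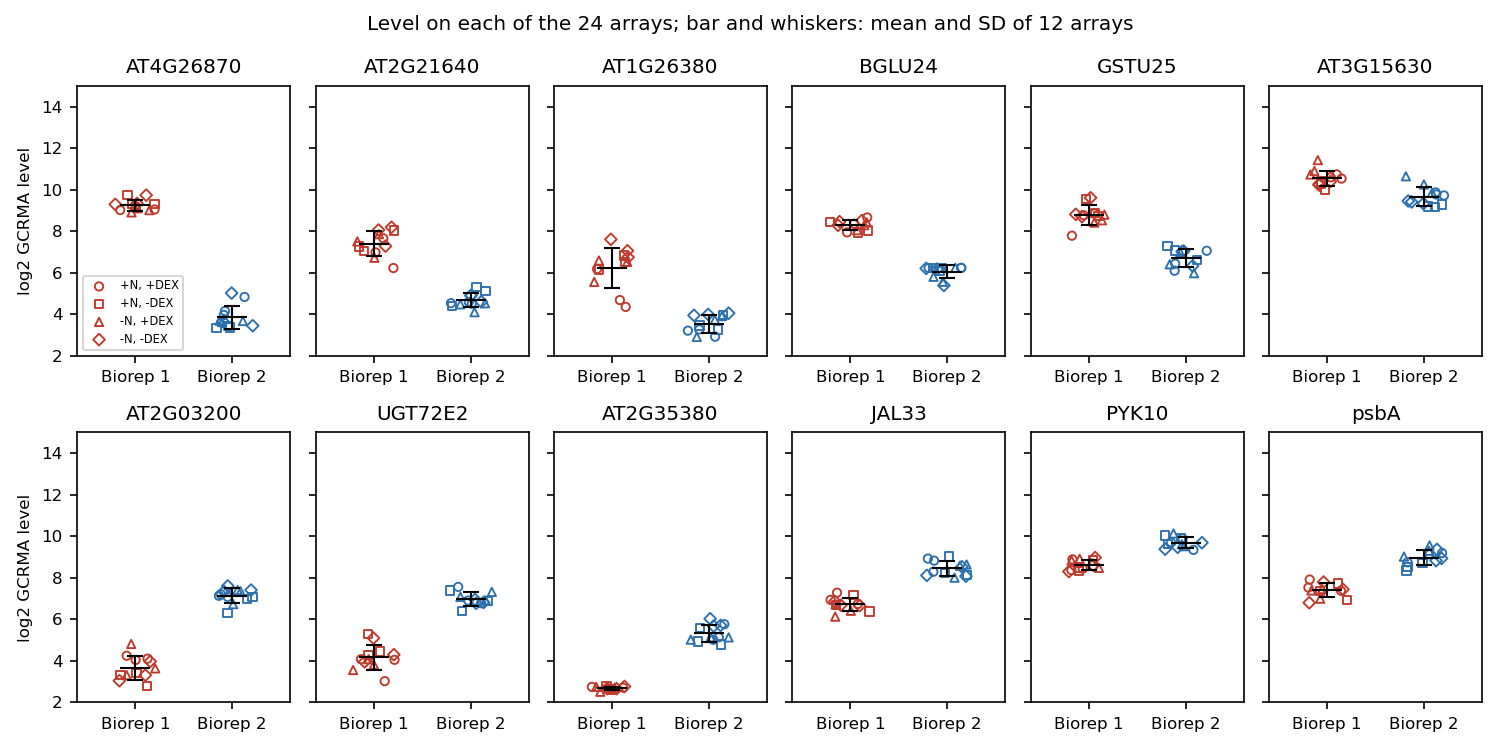
Level of 12 genes on each of the 24 arrays (y axis, log2 GCRMA level), Biorep 1 in red on the left and Biorep 2 in blue on the right of each panel, with symbols for the 4 groups of N and DEX and the mean and SD of 12 arrays in black. AT4G26870 averages 9.26 in Biorep 1 and 3.86 in Biorep 2, while the ranges of AT3G15630 overlap.

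The sugar and energy starvation list, holds genes that are induced when carbon runs short, and 5 of its 19 genes could be matched to a named probe set. All 5 were higher in Biorep 1, by 0.42 to 0.88, with a median of 0.61 against 0 over all probe sets. All 5 had a mean over 4, where 51.1% of probe sets were called. AT3G15630 ran from 10.02 through 10.47 to 11.43 in Biorep 1, against 9.17, 9.59 and 10.65 in Biorep 2. The ranges overlapped, and DEX raised this gene in both Bioreps, by 0.56 in Biorep 1 and 0.71 in Biorep 2. Its Biorep difference was 0.88 ± 0.08 with treatment as covariate (adjusted p = 5.0e-08, limma). AKINBETA1, a regulatory subunit of the SnRK1 kinase that senses energy status, was 0.62 higher, AT1G18460 0.61, AT3G10020 0.59 and AT3G15450 0.42. With treatment replicates averaged, AT3G15450 had an adjusted p of 0.15 and the other 4 kept their calls.

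Autophagy genes and sugar transporters gave a mixed picture. ATG8E, a ubiquitin-like protein that coats autophagosomes, was 1.09 ± 0.09 higher in Biorep 1, with 10.80, 11.22 and 11.59 in Biorep 1 and 9.72, 10.18 and 10.61 in Biorep 2. Its relative ATG8F was lower by 0.52 units in Biorep 1 (-0.52 ± 0.07), and neither gene's groups overlapped. In all, 4 of 8 ATG genes were higher and 1 lower. This is 62.5% called, beside 51.1% of probe sets with a mean over 4, which all 8 had. ATG8C (0.31) and ATG8H (0.36) lost their calls when replicate 2 or 3 was left out and with treatment replicates averaged. Of 14 SWEET sugar transporters, 3 were higher: SWEET8 (1.78), SWEET2 (1.25) and SWEET16 (0.79). The share called was 21.4%, beside 25.2% of all probe sets, and 4 of the 14 had a mean over 4. SWEET8 lost its call with treatment replicates averaged (adjusted p = 0.12), and its difference ranged from 0.68 with N and DEX to 3.11 with neither. Of 15 sulfur deficiency genes 2 could be named, and both were higher, BGLU28 (1.76) and AT1G04770 (0.80), although BGLU28 had an adjusted p of 0.065 with treatment replicates averaged.

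Beta-glucosidases, which cleave sugars from stored compounds, differed in both directions, 6 higher and 2 lower of 21. This is 38.1% called, beside 25.2% of all probe sets. Among the 11 with a mean over 4, 5 were higher and 2 lower, where 51.1% of all such probe sets were called. BGLU24 ran from 7.94 through 8.33 to 8.67 in Biorep 1, against 5.39, 6.22 and 6.25 in Biorep 2, a difference of 2.23 ± 0.11, and BGLU27 was 1.78 higher. Neither gene's groups overlapped. PYK10, the main beta-glucosidase of the root ER body, a compartment known for defence in Brassicaceae, was lower: 8.30, 8.54 and 8.98 in Biorep 1, against 9.35, 9.67 and 10.14 in Biorep 2. This gave -1.07 ± 0.11 (adjusted p = 1.2e-07, limma), without overlap.

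Other called genes of the ER body list lay on the same side. Of 7 members that could be named, PYK10 included, 5 were lower in Biorep 1 and none higher, with a median of -0.52. The share called was 71.4%, beside 25.2% of all probe sets. All 5 with a mean over 4 were lower, where 51.1% of all such probe sets were called. NAI1, the bHLH factor that controls ER body formation, ran from 4.41 through 5.27 to 5.86 in Biorep 1, against 6.51, 6.84 and 7.28 in Biorep 2. The jacalin-like lectin JAL33, found in complexes with PYK10, differed by -1.73 ± 0.13, again with all Biorep 1 arrays below all Biorep 2 arrays. JAL34 (-0.41) and NAI2, a protein of the ER body (-0.52), were lower with overlap, and NAI2 had an adjusted p of 0.055 with treatment replicates averaged. This list too was written after values had been seen. To the same later addition belong the lists of late embryogenesis abundant proteins, small heat shock proteins, peroxidases, berberine bridge enzyme-like oxidases and beta-glucosidases. So do those of UDP-glycosyltransferases, tau glutathione transferases, ATG genes, SWEET transporters and organelle transcripts, and their counts too are a description.

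Among probe sets matched to 1 gene, the largest difference downward was in AT2G03200, an aspartyl protease family member. It ran from 2.78 through 3.52 to 4.82 in Biorep 1, against 6.31, 7.17 and 7.61 in Biorep 2. Without overlap, it was 11.1-fold lower in Biorep 1 (-3.47 ± 0.17, adjusted p = 1.1e-11, limma). The proline-rich AT5G09480 lay at the floor on 11 of 12 Biorep 1 arrays and between 4.67 and 6.37 on Biorep 2 arrays, so that its difference of -2.997 is limited by the floor. AT4G38080 (-2.73) and AT2G22510 (-2.32), of the same kind of wall protein, were also lower, and so were the glycine-rich AT1G55990 (-2.14) and AT4G33610 (-2.14).

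AT2G35380, a class III peroxidase, the family of wall enzymes that make and use hydrogen peroxide, ran from 2.51 through 2.68 to 2.80 in Biorep 1, against 4.79, 5.14 and 6.03 in Biorep 2. Its groups lay wholly apart at -2.64 ± 0.11. Across the family, 6 of 55 members were higher, among them AT1G14550 (1.29), and 10 were lower, among them AT5G66390 (-0.95). The share called was 29.1%, beside 25.2% of all probe sets. ATPMEPCRB, a pectin methylesterase, was lower by 1.95 units (-1.95 ± 0.16), with overlap. It was 1 of 4 pectin genes that could be named and the only one with a mean over 4. On other wall gene lists, 2 of 19 expansins were higher and 2 lower (21.1% called), and 3 of 11 xyloglucan genes were lower and none higher (27.3%). Both shares lie near the 25.2% of all probe sets. None of 3 extensins and proline-rich proteins on the list was called. In lignin precursor synthesis, HCT (-0.89) was lower in Biorep 1 and CCR2 (0.49) higher. OPCL1 (-0.83), a CoA ligase also on this list but not assigned to lignin here, was lower. These were the 3 of 19 listed genes that could be named.

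The other genes among the 20 with the largest differences downward came from several families. AT1G72920 (-2.33) and AT1G72940 (-2.13) encode TIR-NBS proteins, a class of immune receptors, and AT1G78780 (-2.32) belongs to a pathogenesis-related family. AT5G13900 (-2.09) and AT2G48130 (-2.03) encode lipid transfer proteins, AT3G50400 (-2.31) a GDSL-type lipase, AT4G36610 (-2.44) an alpha/beta hydrolase and AT4G28940 (-2.57) a phosphorylase family protein. AT2G22750, a bHLH factor, was lower by 2.25 units (-2.25). AT1G56320 (-2.69), AT2G42760 (-2.24) and AT1G32690 (-2.15) are given without a role.

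Of 8 auxin response genes that could be named, 5 were higher in Biorep 1 and 1 lower (75% called), with a median of 0.48. Of the 5 with a mean over 4, 3 were higher and 1 lower. Among all probe sets 25.2% were called, and 51.1% of those with a mean over 4. LBD16, a factor of lateral root initiation, ran from 8.45 through 8.91 to 9.44 in Biorep 1, against 7.31, 7.87 and 8.16 in Biorep 2. It did not overlap between the Bioreps and differed by 1.08 ± 0.10 (adjusted p = 5.5e-08, limma). LBD29 (1.48) had an adjusted p of 0.065 with treatment replicates averaged. IAA29, an auxin repressor, was 1.09 higher across treatments, with 2.34 and 1.87 in the groups without DEX and 0.12 and 0.04 in those with DEX. The difference in its DEX effect, -2.02, did not pass the threshold (adjusted p = 0.25, limma), and its level call was lost whichever replicate number was left out and with treatment replicates averaged. GH3.17, which conjugates auxin to glutamate, was lower (-0.63).

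**Figure D4:**
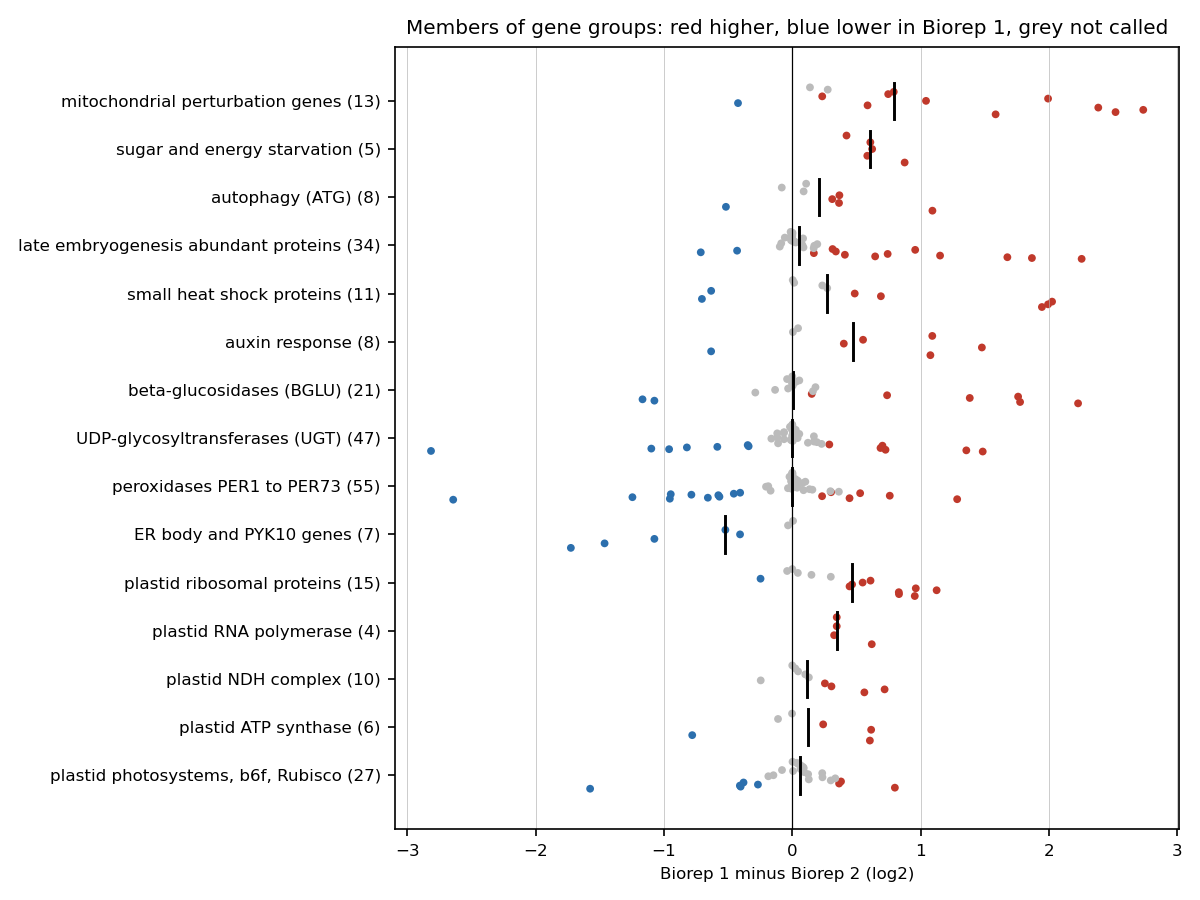
Biorep 1 minus Biorep 2 (x axis, log2) of every member that could be named of 15 gene groups, with the number of probe sets in brackets. Red members were higher in Biorep 1, blue lower and grey not called, vertical offsets have no meaning, and black bars are medians. The starvation and plastid RNA polymerase groups are wholly red, while blue members lead in the ER body group.

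Genes of the nitrate response did not share a direction. The repressors AT1G68670 (0.55) and AT1G25550 (0.33), of the HHO family, were higher in Biorep 1, whereas the 6-phosphogluconate dehydrogenases AT5G41670 (-1.12) and AT1G64190 (-0.74), enzymes of the pentose phosphate pathway, were lower, of 6 members that could be named. AT5G41670 had an adjusted p of 0.051 with treatment replicates averaged. BZIP53, a partner of bZIP1 in dimers, was 0.29 higher, while bZIP44 differed by 0.41 with an adjusted p of 0.091 (limma), and passed under some alternatives, among them quantile normalization (adjusted p = 0.044). PYE, a regulator of the iron deficiency response, was 0.54 higher. GI, the 1 of 20 listed clock genes that could be named, was lower (-0.45, adjusted p = 4.4e-05), and reached 0.051 with treatment replicates averaged.

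Few of the cell identity genes that could be named lay well above the floor. GSO1, a receptor kinase needed for the endodermal barrier, ran from 5.63 through 6.57 to 6.96 in Biorep 1, against 7.36, 7.48 and 7.90 in Biorep 2. It was lower in Biorep 1 without overlap, with a difference of -1.01 ± 0.10. JKD, the other endodermis marker, differed by -0.05 and was not called, but its mean was not over 4, which limits what it could show. GUT2, of xylan synthesis in xylem, differed by 0.12 and was not called in the reported fit, but passed with quantile normalization (adjusted p = 0.0054), median centring and array weights. Single markers do not measure the share of a cell type, and the part of cell mixture in the other results was not tested.

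Of 69 plastid genome transcripts 35 were called (50.7%), 26 higher and 9 lower in Biorep 1, beside 25.2% of all probe sets. Among the 56 with a mean over 4, 24 were higher and 9 lower. Of all probe sets with such a mean, 51.1% were called. The plastid genome encodes its own ribosomal proteins and RNA polymerase beside subunits of the photosynthetic complexes. Of 15 ribosomal protein transcripts 9 were higher in Biorep 1 and 1 lower, with a median of 0.47, and all 4 RNA polymerase subunits were higher (0.33 to 0.62). The transcript rps4 ran from 7.53 through 7.71 to 8.03 in Biorep 1, against 6.51, 6.76 and 7.19 in Biorep 2, without overlap, and rpl32 differed most among the higher ones, at 1.13. rpoA and rpoB lost their calls with treatment replicates averaged, rpoB when replicate 2 or 3 was left out, and rpoC2 whichever replicate number was left out.

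Transcripts of the photosystems, cytochrome b6f and Rubisco held 3 higher and 5 lower members of 27. This is 29.6% called, beside 25.2% of all probe sets. Among the 18 with a mean over 4, 3 were higher and 5 lower, where 51.1% of all such probe sets were called. The transcript psbA, which encodes the D1 protein of photosystem II, ran from 6.80 through 7.42 to 7.92 in Biorep 1, against 8.35, 8.98 and 9.56 in Biorep 2. It was lower without overlap (-1.58 ± 0.14, adjusted p = 2.2e-08, limma), while psaI was 0.80 higher. The ATP synthase subunits divided as well, with atpH at -0.78 and atpA at 0.61, both without overlap. Of 22 probe sets for mitochondrial genome transcripts, 7 were higher and 3 lower (45.5% called), with matR at 0.76, and 17 had a mean over 4. Copies of organelle sequence in the nuclear genome could share these probes, and the counts are uncertain to that extent.

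Control probe sets moved with the Bioreps too. The GAPDH signal at the 3' end minus that at the 5' end averaged 0.333 ± 0.144 in Biorep 1 and 0.684 ± 0.155 in Biorep 2 (SD, n = 12 each, adjusted p = 0.00022, permutation test of 100000 resamples over 11 controls). The other GAPDH set (-0.59) and 1 ubiquitin set (-0.15) were also lower in Biorep 1. For 1 actin set the same measure was higher, at 0.503 ± 0.257 in Biorep 1 and -0.016 ± 0.352 in Biorep 2, and the other actin set (-0.03) and ubiquitin set (0.02) were not called. The hybridisation spike bioD was 0.28 higher in Biorep 1, at 12.83 ± 0.13 against 12.55 ± 0.13. The other spikes, bioB (0.30), bioC (0.18) and cre (0.11), were also called higher in Biorep 1. Of these, bioB lost its call without replicate 1, bioC without replicate 1 or 2 and cre without replicate 2. The 25S ribosomal RNA, at 13.50 in Biorep 1 and 13.42 in Biorep 2, was not called. The part of RNA quality or hybridisation in the gene differences above was not tested.

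The second question was whether the preparations responded alike to DEX and N. DEX changed 1035 probe sets in Biorep 1 (4.55%), 589 upward (2.59%) and 446 downward (1.96%), and 573 in Biorep 2 (2.52%), 375 upward (1.65%) and 198 downward (0.87%). Called in both were 457, all with the same sign, which is 44.2% of the Biorep 1 calls and 79.8% of the Biorep 2 calls. Of the Biorep 1 calls 95.9% had the same sign in Biorep 2, and of the Biorep 2 calls 98.3% had the same sign in Biorep 1. Across 9428 probe sets with a mean over 4, which are not independent replicates, the effects correlated with r = 0.782. No array is shared between the Bioreps. The spread between arrays of a group was larger in Biorep 1, with a median SD of 0.250 against 0.217 in Biorep 2. With array weights, DEX calls numbered 762 in Biorep 1 and 809 in Biorep 2. Which Biorep held more DEX calls therefore depended on the fit.

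N changed 106 probe sets in Biorep 1 (0.466%), 38 upward (0.167%) and 68 downward (0.299%), and 119 in Biorep 2 (0.523%), 66 upward (0.29%) and 53 downward (0.233%). Called in both were 29, all with the same sign, which is 27.4% of the Biorep 1 calls and 24.4% of the Biorep 2 calls. The same sign was shared by 93.4% of the Biorep 1 calls and 95.8% of the Biorep 2 calls, and r was 0.507. With 1 replicate number left out, DEX calls numbered 458 to 665 in Biorep 1 and 244 to 303 in Biorep 2, and N calls 40 to 113 in Biorep 1 and 45 to 58 in Biorep 2.

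**Figure D5:**
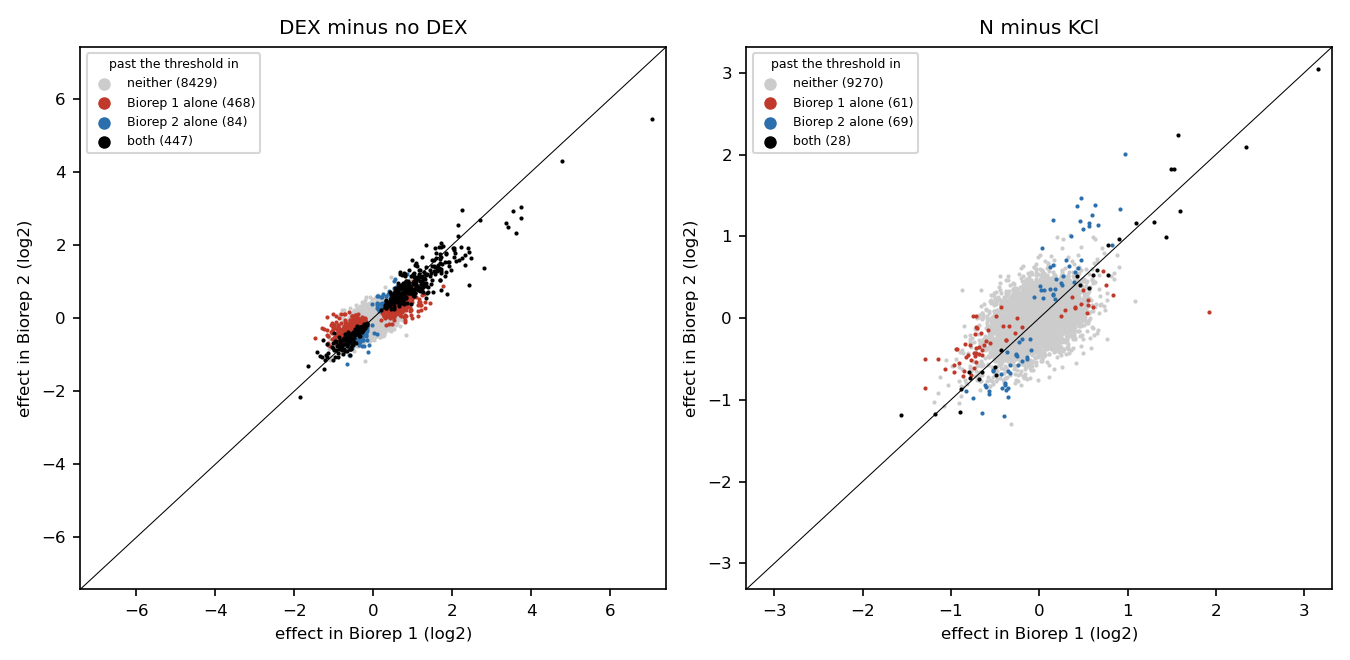
Effect in Biorep 1 (x axis, log2) against effect in Biorep 2 (y axis, log2) for 9428 probe sets with a mean over 4, DEX on the left and N on the right, coloured by the Biorep in which the effect passed the threshold. The diagonal marks equal effects. Black points were called in both Bioreps and lie along the diagonal.

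Tested directly, the DEX effect differed between the Bioreps for 5 probe sets (0.022%) and the N effect for 5 (0.022%). An unadjusted p under 0.05 was reached by 826 (3.63%) and 946 (4.16%) of all 22746 probe sets (limma). Among the 22746, 11443 had a mean between 2 and 3, near the floor, so these shares cannot be read against the threshold. AT1G12080 had a DEX effect of 2.07 in Biorep 1 and 0.02 in Biorep 2. Its levels were 2.34, 2.79 and 5.70 in Biorep 1 (lowest, median, highest), against 2.30, 2.35 and 2.45 in Biorep 2, so that Biorep 2 stayed near the floor under every treatment. The difference of 2.05 ± 0.29 had an adjusted p of 0.026 (limma), and of 0.12 to 0.18 with 1 replicate number left out. AT3G22800, a leucine-rich repeat extensin of the cell wall, had an N effect of -0.10 in Biorep 1 and -1.18 in Biorep 2. It was at the floor on 6 of 12 Biorep 1 arrays, at 2.30 to 2.50, against 2.43 to 3.98 in Biorep 2. The difference of 1.09 ± 0.11 had an adjusted p of 0.00062, and of 0.079 or more without replicate 2 or without replicate 3.

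Of the 457 probe sets called for DEX in both preparations, 314 were also called for the Biorep difference averaged over the treatments (68.7%), 237 higher and 77 lower in Biorep 1. The share among all probe sets with a mean over 4 was 51.1%, but it rose with level and the 457 were not matched for level. AT1G54740 ran from 6.43 through 8.002 to 9.22 in Biorep 1, against 3.07, 5.09 and 6.89 in Biorep 2. Its ranges overlapped. DEX raised it by 2.24 in Biorep 1 and 2.95 in Biorep 2, and the Biorep difference was 2.70 ± 0.14. SWEET2, a sugar transporter of the vacuole membrane, had DEX effects of 1.12 in Biorep 1 and 1.43 in Biorep 2 and a Biorep difference of 1.25 ± 0.07. DGL was lowered by DEX in both, with effects of -1.86 in Biorep 1 and -2.15 in Biorep 2. These counts use the same arrays for both measures and are given as a description.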

How the data were processed

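Levels are deposited log2 values from ATH1 arrays, made by the authors with GCRMA per the submitters' processing notes (no version), and the log2 scale was read from the values. The 24 arrays were grouped from their titles. Of 22810 probe sets, 64 controls were left out. Levels were fitted in R 4.3.3 with the lmFit and eBayes functions of limma 3.58.1 as two-sided tests, with Biorep and the 4 treatment groups as terms, Benjamini-Hochberg adjustment over 22746 probe sets and a threshold of 0.05. Effects of DEX and N in each Biorep, and their differences, came from 1 fit of 8 group means. Scripts were tested on simulated data. Control probe sets were compared by permutation. The number of arrays and the floor limit the precision.

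Names came from the platform table, updated to TAIR10.1, which matched 13436 probe sets to 1 gene and was used for names alone. Another 503 probe sets list several genes, and 8730 are unnamed here. Named genes were the 20 largest differences each way with adjusted p under 0.05 and 1 sign in all 4 groups, up to 5 each way for effect differences, and up to 4 per list. Other genes were named after their values were seen. The comparison and lists were chosen with earlier results of these data known.

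Treatment replicate numbers were not used to pair arrays across Bioreps. Of 12 same-numbered pairs 1 correlated over 0.1, although 8 correlated best with their own number. Alternatives were no covariate, the replicate number as block, averaged or left-out replicates, a mean over 4, other normalizations, an intensity trend and array weights. Results on 1 gene family are not reported here.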

Additional observations from a re-analysis of the deposited data

Results flagged for a closer look

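These results stand out because the effect of a treatment differed between the preparations in a direct test. The DEX effect in Biorep 1 minus that in Biorep 2 was 2.05 for AT1G12080 and -0.76 for AT1G35200, a platform symbol with no locus in the annotation used. It was 2.29 and 1.20 for 2 probe sets that could not be named and 1.62 for a probe set that detects several genes, whose DEX effect was 7.07 in Biorep 1 and 5.44 in Biorep 2. The N effect in Biorep 1 minus that in Biorep 2 was 1.09 for AT3G22800 and -0.82 for AT1G35200. For 3 unnamed probe sets it was 1.85, 0.27 and -1.06. Each of these 10 differences lost its call under at least 1 alternative, among them the left-out replicate numbers. The interaction of AT1G35200 rests on levels of 2.37 to 4.10 in Biorep 1, against 2.30 to 2.51 in Biorep 2, close to the floor.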

How the results depend on the processing

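The 40 genes with the largest level differences kept direction and call in all 438 values under alternatives, as did 2323 of 2560 values of 239 other listed genes. With treatment replicates averaged, a fit with fewer residual degrees of freedom, the level calls numbered 3131. Of these, 1421 were higher and 1710 lower in Biorep 1. With 1 replicate number left out they numbered 3943 to 4263. Centring arrays on the median turned the balance of level calls, with 52.3% higher in Biorep 1, against 44.5% in the reported fit. DEX difference calls (5) became 3 with the replicate block, 8 with quantile normalization, 10 with median centring and 18 to 31 with a replicate number left out. N difference calls (5) became 2 with the block, 1 above a mean of 4 and 11 to 31 with a replicate number left out. DEX calls with a replicate number left out were 458 to 665 in Biorep 1 and 244 to 303 in Biorep 2. Array weights gave 762 DEX calls in Biorep 1 and 809 in Biorep 2, the reverse of the order in the reported fit. N calls with a replicate number left out were 40 to 113 in Biorep 1 and 45 to 58 in Biorep 2. N calls in Biorep 1 were also 190 above a mean of 4 and 43 with array weights, and in Biorep 2 they were 189 with the block and 406 with array weights. The cause of these shifts was not tested. Replicate numbers paired arrays across the Bioreps weakly at most (median correlation of deviations 0.026, and 8 of 12 pairs correlated best with their own number). The block moved the level calls from 5739 to 5923.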

Other observations

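Levels of the same genes in the other arms are on scales of their own and were not tested against the Bioreps, whose number is not given for those arms. AT4G26870 averaged 8.24 ± 0.23 on the 11 empty-vector arrays with CHX and 5.57 ± 0.29 on the 12 bZIP1 arrays without CHX (SD). AT2G03200 averaged 6.62 ± 0.38 on the empty-vector arrays and 7.98 ± 0.32 without CHX.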
